A study of Mus musculus with 2 samples.

Results

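Keratins are the intermediate filament proteins of epithelia, and the 8 genes described here are the simple and surface keratins Krt8, Krt18, Krt19, Krt20 and Krt7, the basal keratin Krt14, and the squamous-type genes Sfn and Sprr1a. They were chosen by symbol, all 8 were present among the 17044 gene symbols of the table, and each was followed across its 12 cell clusters. The cells came from the colonic epithelium of C57BL/6 mice labelled WT, taken 2 weeks past irradiation, in 1 group of 2 libraries whose titles differ by a library number alone. The series title places them in work on colonoids, cultured crypt organoids, transplanted into a rectum injured by radiation, but no label says which cells came from a graft, and neither the radiation dose nor the age of the mice is given. Control samples without irradiation or graft were not analysed here, so no value below is an effect of irradiation.

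A keratin filament is built from pairs of a type II and a type I chain. In simple epithelia Krt8 is the main type II chain and Krt18 and Krt19 are its type I partners, whereas Krt7 is a second type II chain of ducts and glands and Krt20 is a type I chain of mature intestinal surface cells. Krt14 pairs with Krt5 in the basal layer of squamous epithelium. Sfn encodes stratifin, a phosphoserine-binding adaptor abundant in stratified epithelia and a p53 target, and Sprr1a encodes a small proline-rich precursor of the cornified envelope that is also known as an injury gene. The anal canal next to the rectum carries squamous epithelium.

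The values were the authors' averages over the cells of a cluster, in UMIs (unique transcript molecules) per 10000 UMIs of a cell. No column separates the libraries, so there are no replicates, no test was possible, and differences are described by their size. The 95% intervals hold counting error alone. The clusters were drawn from the same expression values. The arithmetic of the low averages gave 3082 cells (cluster 0 the most, 482, and cluster 11 the fewest, 19), with median UMI totals per cell from 1407 in cluster 5 to 19522 in cluster 7. Cluster 0 was goblet-like (9 of 9 goblet markers highest there), cluster 11 enteroendocrine-like (8 of 8), cluster 7 proliferating-like (8 of 8), cluster 5 neutrophil-like (7 of 8) and cluster 8 absorptive colonocyte-like (5 of 9). Clusters 1, 2, 3, 4, 6, 9 and 10 are given by number. Clusters 5 and 10 had the most Ptprc, the pan-leukocyte gene, at 3.69 and 1.78 per 10000, and the other 10 clusters are called epithelial here, with Epcam, an epithelial adhesion gene, between 14.9 and 37.6. Of these, cluster 6 was led by fold by the immunoglobulin genes Igkc, Igha and Jchain, while Ptprc was listed at 0 and Epcam was at 17.8 there. All tissue labels read colon epithelium. Of the 7 markers of squamous basal cells looked up, 5 were measured. The integrin gene Itgb4 reached 2.31 in cluster 4, Dst 0.954 in cluster 8, Krt14 0.415 in cluster 4, Krt15 0.248 in cluster 7 and the basement membrane collagen Col17a1 0.00332 in cluster 1.

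**Figure D1:**
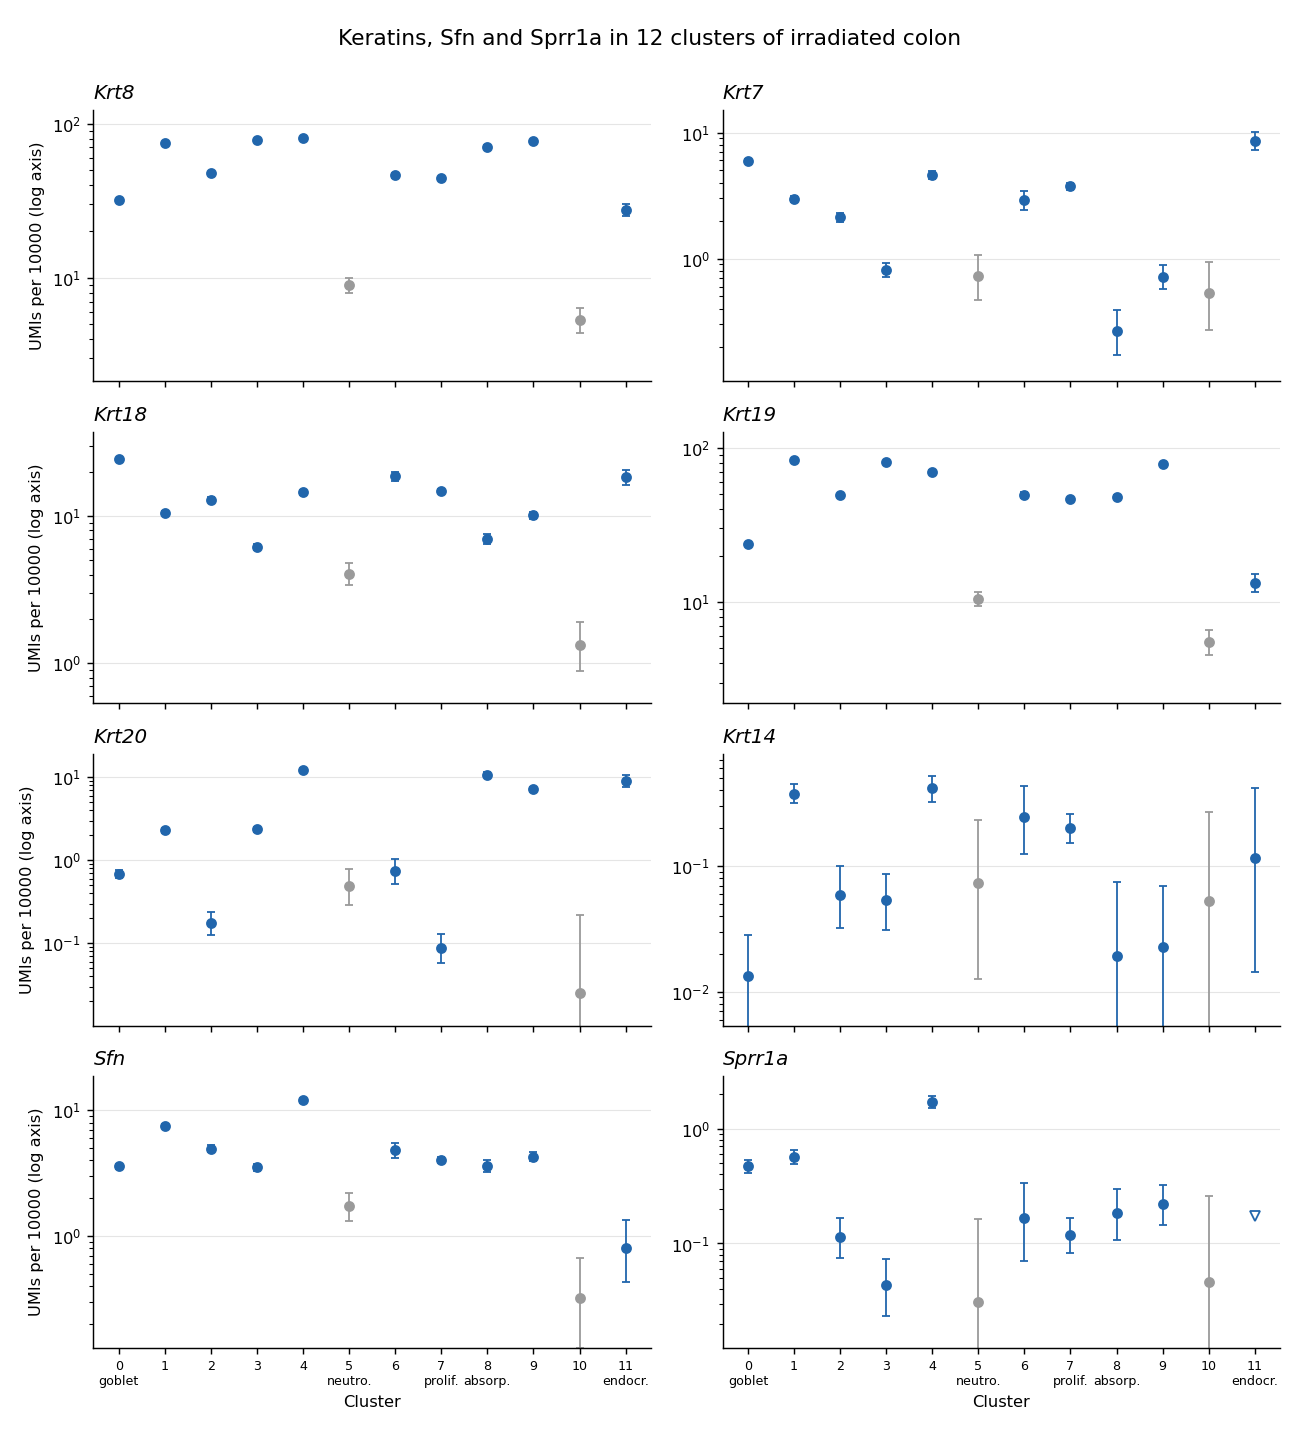
Average level of each of the 8 genes in the 12 clusters, in UMIs per 10000 on a log axis with its own range in each panel. Points are averages, bars are 95% counting intervals (a bar that runs off an axis is cut there), grey marks clusters 5 and 10, and the open triangle is the limit for Sprr1a in cluster 11, where it is listed at 0. Krt8 and Krt19 stand high in clusters 1, 3, 4 and 9, Krt18 and Krt7 in clusters 0 and 11, and Sfn and Sprr1a in cluster 4.

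Of the 8 genes, 7 reached 1 per 10000 in at least 1 cluster and were counted by fold, against 3276 such genes in the whole table. Krt14 did not, at 0.415 at most. A gene was counted as higher or lower in a cluster where its level was at least 2-fold above or below the mean of the other 11, after adding 0.1 per 10000 to both. In cluster 4, 3 of the 7 were higher (Krt20, Sfn and Sprr1a), beside 9.92% of the 3276 genes, and 0 were lower, beside 27.6%. Sprr1a reached 1 per 10000 in cluster 4 alone, so it entered the 7 through the value counted there. In the goblet-like cluster 0, Krt18 and Krt7 were higher, beside 5.92% of genes, and Krt19 and Krt20 were lower, beside 22.9%. The enteroendocrine-like cluster 11 had Krt20 and Krt7 higher (14% of genes) and Krt19, Sfn and Sprr1a lower (28.7%). All 7 were lower in cluster 5, where 54.6% of genes were lower, and in cluster 10, where 34.3% were. In clusters 8 and 9 Krt20 was higher (10.9% and 3.57% of genes) and Krt7 lower (32.4% and 21.5%). Cluster 3 had Krt7 and Sprr1a lower (21.3%), and clusters 2, 6 and 7 had Krt20 lower (16%, 17.5% and 22.6%). In clusters 2, 3, 6 and 7, 0 of the 7 were higher, beside 1.34%, 2.9%, 3.75% and 6.59% of genes. In cluster 1 none of the 7 passed 2-fold in either direction, beside 0.885% of genes higher and 17.6% lower.

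Krt8 and Krt18 are neighbours in the genome. In the GENCODE M21 annotation of GRCm38, Krt8 lies on chromosome 15 at 101996698 to 102004482 on the minus strand and Krt18 at 102028180 to 102032027 on the plus strand, so they point away from each other, with 23698 bases between their GENCODE starts and 0 annotated genes in that gap. Krt7 lies on the same chromosome at 101411043 to 101430313. Krt20 (99428403 to 99438150), Krt19 (100140810 to 100148665) and Krt14 (100203162 to 100207548) lie on chromosome 11, all on the minus strand. Krt18 thus sits apart from the other type I genes. The 250 bases before the RefSeq start of Krt8 and of Krt18 are shown because the levels of these neighbours went opposite ways across epithelial clusters, and those of Krt20 and Krt7 because clusters 8 and 0 differed in opposite directions for them. Sprr1a is shown because its level in cluster 4 stood 3.04-fold above the next cluster. They are from RefSeq (GRCm38.p6), whose table held 7 of the 8 genes, and are written 5′ to 3′ on the gene's strand. They end at the RefSeq start, which differs from the outermost GENCODE start given above: it lies 1360 bases downstream of it for Krt7, 140 for Krt8, 36 for Krt18 and 14 for Sprr1a, and within 3 bases for Krt20. Capitals mark matches, on either strand, to TATAAA (the TATA box), TGANTCA (the AP-1 motif) and GGGCGG (a GC box), motifs chosen after the sequences had been seen.

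Krt8 (chr15:102004343-102004592, minus strand): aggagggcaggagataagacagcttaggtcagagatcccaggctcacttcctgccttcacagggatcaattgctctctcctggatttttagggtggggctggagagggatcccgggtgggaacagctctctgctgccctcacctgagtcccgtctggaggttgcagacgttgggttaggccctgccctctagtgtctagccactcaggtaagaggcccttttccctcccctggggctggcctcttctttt
Krt18 (chr15:102027966-102028215, plus strand): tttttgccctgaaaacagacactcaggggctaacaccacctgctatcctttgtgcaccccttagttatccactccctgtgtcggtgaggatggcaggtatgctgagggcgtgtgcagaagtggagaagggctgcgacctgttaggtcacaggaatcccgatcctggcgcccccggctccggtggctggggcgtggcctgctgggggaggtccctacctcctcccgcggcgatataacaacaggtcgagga
Krt20 (chr11:99438154-99438403, minus strand): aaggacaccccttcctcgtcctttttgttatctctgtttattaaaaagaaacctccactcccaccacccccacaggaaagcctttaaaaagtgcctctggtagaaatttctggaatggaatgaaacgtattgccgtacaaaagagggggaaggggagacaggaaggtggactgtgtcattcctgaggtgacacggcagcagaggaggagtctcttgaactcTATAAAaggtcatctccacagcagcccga
Krt7 (chr15:101412153-101412402, plus strand): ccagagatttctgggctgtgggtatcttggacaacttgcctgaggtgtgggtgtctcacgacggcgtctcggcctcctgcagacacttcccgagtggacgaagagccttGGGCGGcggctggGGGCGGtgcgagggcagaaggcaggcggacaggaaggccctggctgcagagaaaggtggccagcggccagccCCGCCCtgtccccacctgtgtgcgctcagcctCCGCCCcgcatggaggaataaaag
Sprr1a (chr3:92485882-92486131, minus strand): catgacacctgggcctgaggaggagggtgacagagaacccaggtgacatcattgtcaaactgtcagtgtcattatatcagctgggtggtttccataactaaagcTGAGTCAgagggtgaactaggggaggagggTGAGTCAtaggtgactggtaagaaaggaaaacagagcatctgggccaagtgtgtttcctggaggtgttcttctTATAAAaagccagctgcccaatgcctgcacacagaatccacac

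Among 32851 promoter windows of this length, 12.4% held TATAAA, 6.75% TGANTCA and 32.7% GGGCGG. Krt20 held TATAAA at 29 to 24 bases before its start. Sprr1a held TATAAA at 43 to 38 and TGANTCA at 146 to 140 and at 116 to 110. Krt7 held 4 matches to GGGCGG, the first at 141 to 136 and the last at 24 to 19, in a window of 66% G and C, beside a median of 52.4% over all windows. No 2 of these matches overlapped. Krt8, Krt18 and Sfn had no match in their windows. Krt14 had none either, but its window ends at a RefSeq start 1518 bases downstream of its GENCODE start. That window lies wholly inside the GENCODE gene, as does the window of Krt7, whose RefSeq start lies 1360 bases downstream. For Krt14 and Krt7 the bases before the GENCODE start were therefore not searched.

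Krt8, the main type II chain, was lowest among epithelial clusters in the goblet-like and enteroendocrine-like ones. It stood at 80.8 per 10000 in cluster 4, 78.6 in cluster 3, 76.6 in cluster 9, 75.1 in cluster 1 and 70.5 in cluster 8. A middle group held 47.7 in cluster 2, 46.2 in cluster 6 and 44.5 in cluster 7 (proliferating-like), and the lowest epithelial levels were 32.2 in the goblet-like cluster 0 and 27.5 in the enteroendocrine-like cluster 11. Adjacent counting intervals overlapped from cluster 4 through 3 and 9 to 1, although cluster 4 lay above clusters 9 and 1, and cluster 3 above cluster 1. They also overlapped from cluster 2 through 6 to 7, although cluster 7 lay below cluster 2. The step from cluster 8 to cluster 2 was 1.48-fold with intervals that did not overlap. From highest to lowest epithelial cluster Krt8 spanned 2.93-fold, and 64.4% of the 3276 genes spanned as much or more. Its pseudogene Krt8-ps, whose reads may be hard to separate from those of the gene, was at 0.0341 at most.

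Krt19, a type I chain without a tail domain, followed Krt8 closely in most clusters. Its levels were 83.6 in cluster 1, 81.2 in cluster 3, 78.4 in cluster 9, 69.9 in cluster 4, 49.5 in cluster 6, 49.4 in cluster 2, 47.6 in cluster 8 and 46.2 in cluster 7. Among epithelia it was lowest in the secretory clusters, at 23.7 in cluster 0 and 13.3 in cluster 11. Adjacent intervals overlapped from cluster 6 through 2 and 8 to 7, although cluster 7 lay below clusters 6 and 2. The ratio of Krt8 to Krt19 lay between 0.898 and 0.978 in clusters 1, 2, 3, 6, 7 and 9, and rose above that in cluster 4 at 1.16 (1.13 to 1.18), in cluster 0 at 1.35 (1.32 to 1.39), in cluster 8 at 1.48 (1.43 to 1.54) and in cluster 11 at 2.06 (1.76 to 2.43). Over the 10 epithelial clusters the log2 levels of the 2 genes had Pearson's r of 0.92 and Spearman's rho of 0.84. Without cluster 6, r was 0.94. This and the correlations below describe points that share libraries and differ in depth.

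Krt18, the other partner of Krt8, was highest in the goblet-like cluster and lowest among epithelia in cluster 3. It stood at 24.5 per 10000 (24.0 to 24.9) in the goblet-like cluster 0, 18.6 in cluster 6, 18.3 in the enteroendocrine-like cluster 11, 14.9 in cluster 7 and 14.6 in cluster 4. Lower levels were 12.9 in cluster 2, 10.4 in cluster 1, 10.1 in cluster 9, 7.02 in cluster 8 and 6.19 (5.92 to 6.48) in cluster 3. The intervals overlapped for clusters 6 and 11, for 7 and 4, and for 1 and 9. Against Krt8 the log2 levels had r of -0.77 over the 10 epithelial clusters, of -0.77 without cluster 6, and of 0.62 over all 12, with clusters 5 and 10 low for both genes.

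The ratio of Krt8 to Krt18 therefore moved 9.66-fold across the epithelial clusters. It was 1.31 (1.28 to 1.35) in cluster 0 and 1.51 (1.30 to 1.74) in cluster 11, 2.48 in cluster 6, 2.99 in cluster 7 and 3.68 in cluster 2. It reached 5.55 in cluster 4, 7.20 in cluster 1, 7.58 in cluster 9, 10.05 in cluster 8 and 12.7 (12.1 to 13.3) in cluster 3. The sum of the type II genes Krt8 and Krt7 divided by the sum of the type I genes Krt18, Krt19 and Krt20 stayed between 0.713 in cluster 6 and 1.08 in cluster 8, a 1.52-fold span, or 1.39-fold without cluster 6. In most clusters Krt8 and Krt19 held the larger part of these sums. Whether the balance of type II and type I chains was held was not tested. UMI levels of different genes are not corrected for transcript length or capture, so these ratios are compared between clusters and do not give the stoichiometry of the chains.

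**Figure D2:**
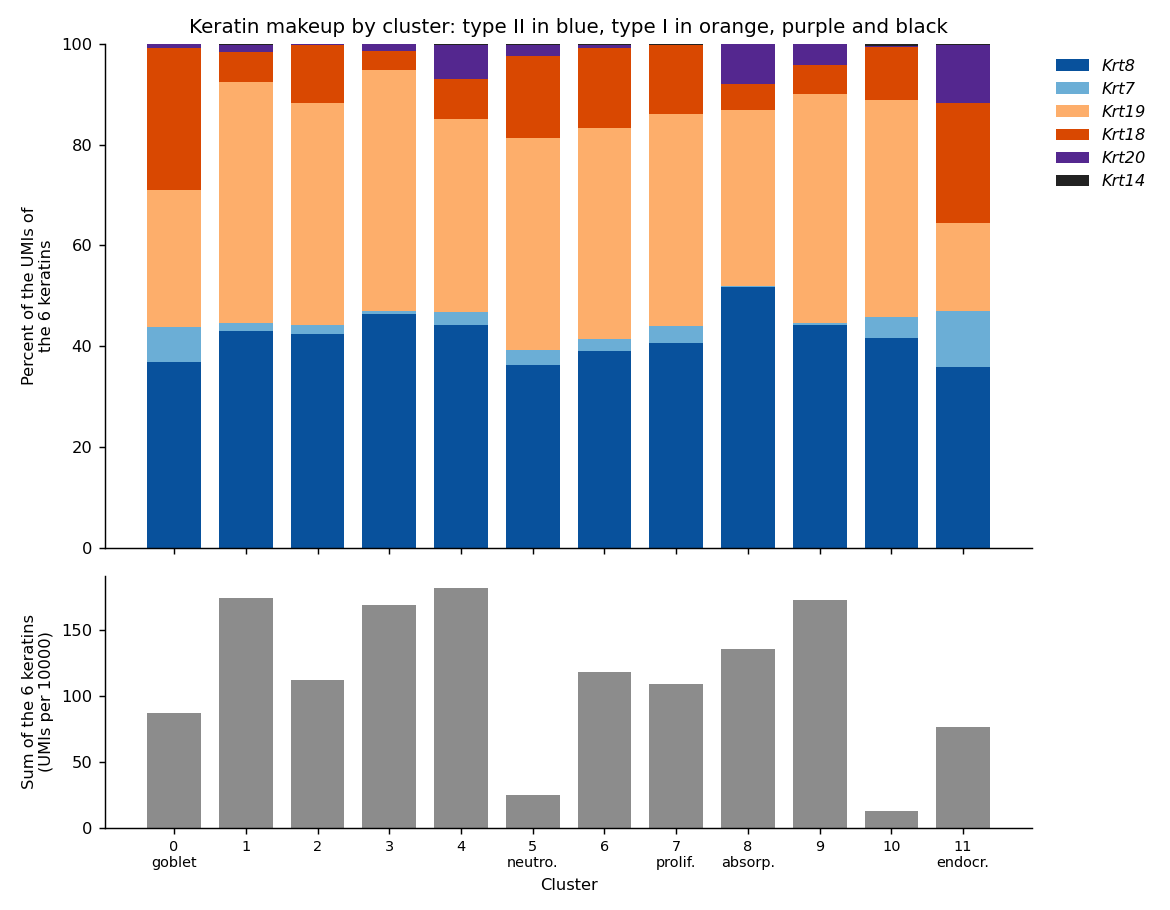
Upper bars give each gene's percent of the summed UMIs of the 6 keratins in a cluster, with type II genes in blue and type I genes in orange, purple and black. Lower bars give that sum in UMIs per 10000. Krt18 takes 28.1% in cluster 0 and 3.66% in cluster 3, and the sum runs from 12.8 in cluster 10 to 182 in cluster 4.

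By share of the 6 keratins, Krt18 took 28.1% in cluster 0 and 23.8% in cluster 11. Its share was 3.66% in cluster 3, 5.15% in cluster 8, 5.84% in cluster 9 and 5.97% in cluster 1. Krt19 took 27.3% and 17.4% in these secretory clusters, compared with 48.0% in cluster 3 and 47.8% in cluster 1. Krt8 ranged less among epithelial clusters, with 35.8% in cluster 11 as its lowest share and 51.8% in cluster 8 as its highest. Together the 6 keratins made up 182 of every 10000 UMIs in cluster 4, 175 in cluster 1, 173 in cluster 9 and 169 in cluster 3. Their sum was lower in cluster 8 (136), cluster 6 (118), cluster 2 (112) and cluster 7 (110), and lowest among epithelial clusters in cluster 0 (87.0) and cluster 11 (76.9).

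Krt7, the second type II chain, was highest in the secretory clusters and lowest in cluster 8. It was at 8.63 per 10000 (7.30 to 10.1) in the enteroendocrine-like cluster 11 and 5.91 (5.70 to 6.14) in the goblet-like cluster 0. Next came 4.59 in cluster 4, 3.73 in cluster 7, 2.98 in cluster 1, 2.91 in cluster 6 and 2.12 in cluster 2. Clusters 3, 9 and 8 held 0.816, 0.714 and 0.265 (0.170 to 0.393), and cluster 8 rested on about 24.3 UMIs. The levels in clusters 3 and 9 overlapped those in the leukocyte-rich clusters 5 (0.725) and 10 (0.530), and cluster 8 overlapped cluster 10. Krt7 and Krt18 had r of 0.85 over the 10 epithelial clusters (rho 0.78, r 0.87 without cluster 6), the highest r of Krt7 with another of the 8 genes.

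Krt20, the surface keratin, spanned more than the other 6 members counted by fold. Its level was 12.2 per 10000 (11.7 to 12.8) in cluster 4, 10.8 (10.1 to 11.5) in cluster 8, 8.96 (7.61 to 10.5) in cluster 11 and 7.19 (6.72 to 7.69) in cluster 9. Intermediate levels were 2.36 in cluster 3 and 2.28 in cluster 1. It was low in cluster 6 at 0.741, cluster 0 at 0.684, cluster 2 at 0.174 (0.125 to 0.237) and cluster 7 at 0.0884 (0.0573 to 0.130). Clusters 8 and 11 and clusters 11 and 9 overlapped, as did 3 and 1, 6 and 0, and 2 and 7. From cluster 7 to cluster 4 the averages differed 138-fold. After adding 0.1 the span was 65.4-fold, and 1.74% of the 3276 genes spanned as much or more, whereas the median gene spanned 3.70-fold. The value in cluster 10, 0.0255, came from UMIs of 1 cell.

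Krt20 and Krt7 together set clusters apart that either gene alone did not. Cluster 8 had Krt20 with little Krt7, as did cluster 9. Cluster 0 and cluster 7 had Krt7 with little Krt20, while cluster 4 and cluster 11 had both. Against Krt8, Krt20 stood at a ratio of 0.326 (0.270 to 0.391) in cluster 11, 0.153 in cluster 8 and 0.151 in cluster 4, compared with 0.00199 in cluster 7. Of 12 surface colonocyte genes, 8 were higher and 1 lower in cluster 8, beside 10.9% and 32.4% of genes. Their median log2 fold there was 2.26, beside -0.41 over all 3276 genes. The 12 share genes with the 9 markers used to name cluster 8, so its count is not separate from that name. In cluster 4, 6 were higher and 2 lower, beside 9.92% and 27.6% of genes, with a median of 0.81 beside -0.37. In the enteroendocrine-like cluster 11, where Krt20 was also counted as higher, 0 of the 12 were higher, beside 14% of genes. There 10 were lower, beside 28.7%, with a median of -3.60 beside -0.27. Over the epithelial clusters Krt20 and Krt7 had r of -0.26 (-0.25 without cluster 6). An average does not show whether both were in the same cells.

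**Figure D3:**
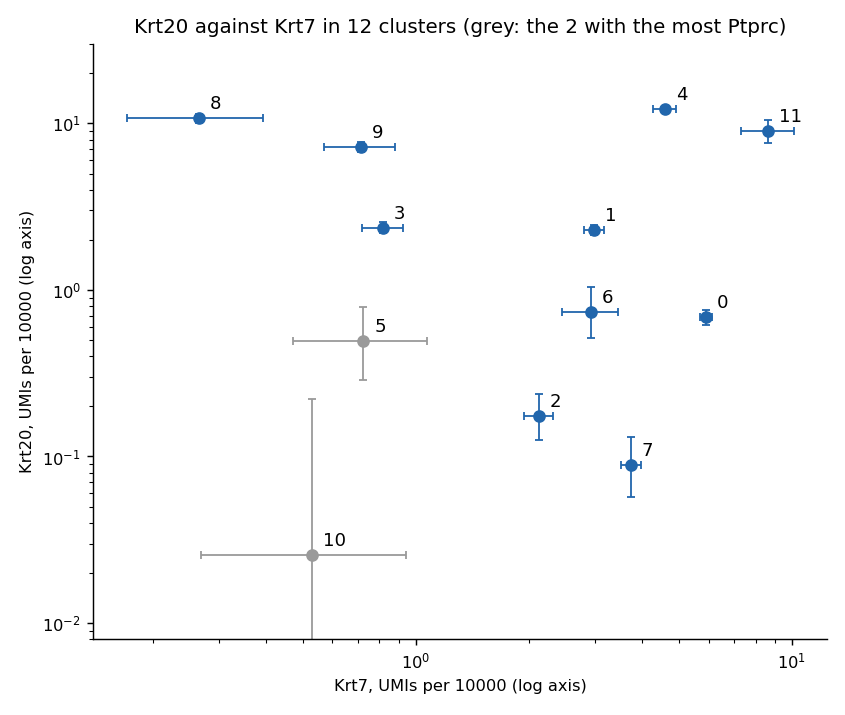
Krt20 (y axis) against Krt7 (x axis) in UMIs per 10000, both on log axes, with 1 numbered point per cluster, 95% counting intervals as bars and grey for the 2 clusters with the most Ptprc. The lower bar of cluster 10 is cut at the axis. Clusters 8 and 9 lie at high Krt20 and low Krt7, clusters 0, 2 and 7 at low Krt20 and higher Krt7, and clusters 4 and 11 high in both.

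Krt14, the basal squamous keratin, was scarce in all 12 clusters. Its highest levels were 0.415 per 10000 (0.325 to 0.523, about 72.4 UMIs) in cluster 4 and 0.378 (0.317 to 0.447) in cluster 1, which overlapped. Cluster 6 held 0.246, cluster 7 0.202, cluster 2 0.0590 and cluster 3 0.0539. Clusters 9, 8 and 0 held 0.0228, 0.0192 and 0.0134, the last from about 6.47 UMIs, and the values 0.117 in cluster 11 and 0.0526 in cluster 10 each came from UMIs of 1 cell. Krt14 resembles other type I keratins in sequence, and how reads matching several genes were counted is not given in the sources used here. Its partner Krt5 and the basal regulator Trp63 were looked up and were not among the 17044 gene symbols, so no level can be given. Why they were missing is not known.

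The other measured keratins were scarce. Of 19, 0 reached 1 per 10000 and 14 stayed under 0.1 in every cluster. The members held from 98.9% of all keratin UMIs in cluster 5 to 99.8% in cluster 3. Among the rest, Krt10, a keratin of the differentiated epidermis, was highest at 0.650 in cluster 11, from about 11.2 UMIs, and between 0.153 and 0.223 in the other epithelial clusters. Krt36 reached 0.303, Krt15, another basal keratin, 0.248 and Krt13, a keratin of wet squamous surfaces, 0.148, all in cluster 7. Krt23 reached 0.177 in cluster 4 and Krt84 0.0824 in cluster 1.

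Sfn and Sprr1a were both highest in cluster 4. Sfn was at 12.04 per 10000 (11.5 to 12.6) there, 7.51 (7.23 to 7.80) in cluster 1 and 4.97 in cluster 2, and between 3.53 and 4.83 in clusters 0, 3, 6, 7, 8 and 9. From cluster 2 through 6, 9, 7, 8 and 0 to 3, each overlapped the next, although cluster 2 lay above clusters 9, 7, 8, 0 and 3. Cluster 6 also lay above clusters 8, 0 and 3, and clusters 9 and 7 above clusters 0 and 3. Sfn was lowest among epithelia in cluster 11, at 0.798 (0.434 to 1.34). Among the epithelial clusters the ratio of Sfn to Krt8 was highest in cluster 4, at 0.149, and lowest in cluster 11, at 0.0290. Of the other 6 genes of its adaptor family (Ywhab, Ywhae, Ywhag, Ywhah, Ywhaq and Ywhaz), 5 reached 1 per 10000. In cluster 4, 0 of these 5 were higher, beside 9.92% of genes, and 1 was lower, Ywhaq at 0.834, beside 27.6%, with a median log2 fold of 0.08 beside -0.37. In cluster 11, 3 of the 5 were higher, Ywhah at 6.88, Ywhae at 6.16 and Ywhaq at 5.29, beside 14% of genes, with a median of 1.26 beside -0.27, and Sfn was lower.

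Sprr1a stood at 1.71 per 10000 (1.52 to 1.92) in cluster 4, 0.563 (0.488 to 0.646) in cluster 1 and 0.470 (0.411 to 0.536) in cluster 0. Elsewhere it was at 0.219 in cluster 9, 0.184 in cluster 8, 0.166 in cluster 6, 0.118 in cluster 7, 0.114 in cluster 2 and 0.0435 in cluster 3. It was listed at 0 in cluster 11, where 3 UMIs would allow up to 0.174. The values in clusters 5 and 10, 0.0310 and 0.0459, each came from 2 cells. Cluster 4 stood apart from the rest beyond the counting intervals, and from cluster 9 to cluster 2 each neighbour overlapped the next. Sfn and Sprr1a had r of 0.81 over the epithelial clusters (rho 0.64, r 0.82 without cluster 6).

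Other squamous-type genes were counted as higher most often in cluster 4. Of a list of 38 that holds none of the 8 members, 23 were measured and 8 reached 1 per 10000. In cluster 4, 5 of these 8 were higher, beside 9.92% of genes, and 1 was lower, beside 27.6%. The median log2 fold of the 8 was 1.65 there, beside -0.37 over all 3276 genes. The higher ones were S100a14, an epithelial calcium-binding protein, at 15.6, Sprr2a3, a further small proline-rich protein, at 13.8, Anxa8, an annexin, at 3.20, the membrane protein Emp1 at 2.74 and the surface protein Ly6d at 2.40. Emp1 was higher still in cluster 9, at 3.69 (3.35 to 4.05). Ly6d reached 1 per 10000 in cluster 4 alone, so it entered the 8 through the value counted there. In cluster 8, 2 of the 8 were higher, Sprr2a3 at 30.1 and Tgm3, a transglutaminase that cross-links cornified envelopes, at 35.8, beside 10.9% of genes, and 2 were lower, Ly6d and Fabp5, beside 32.4%, with a median of 0.01 beside -0.41. Elsewhere Anxa8 and S100a14 were higher in cluster 1 (0.885% of genes), Tgm3 in cluster 3 (2.9%) and Emp1 in cluster 9 (3.57%). Fabp5, a fatty acid binding protein, was higher in clusters 10 and 11 (11.4% and 14%). It reached 1 per 10000 in cluster 11 alone. How UMIs were divided between Sprr2a3 and its near-identical copies Sprr2a1 and Sprr2a2 is not known. Sprr1a in cluster 8, in contrast, was 9.31-fold below its level in cluster 4. Of the 23, 6 stayed under 0.1 per 10000 in every cluster.

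Genes of the desmosome, to which keratin filaments attach, were also high in cluster 4. The list of 16 desmosome and linker genes also holds Cdh1 (E-cadherin), an adherens junction gene. Of the 16, 15 were measured and 8, Cdh1 among them, reached 1 per 10000. All 8 were higher in cluster 4, beside 9.92% of genes, with a median log2 fold of 1.45, beside -0.37 over all tested genes. The desmosomal gene Dsc2 reached 1 per 10000 in cluster 4 alone, at 1.30, so it entered the 8 through the value counted there. Of all 15 measured, 9 were highest in cluster 4 and 4 in cluster 8. Plec (plectin), a keratin linker, was at 3.96, Dsp (desmoplakin) at 3.85, Jup (plakoglobin) at 2.97, Pkp3 (plakophilin 3) at 2.62 and the desmosomal protein Perp at 4.66. With 1 per 10000 added in place of 0.1, 3 of the 8 were higher in cluster 4. Without clusters 5, 6, 10 and 11 in the mean, 5 of the 8 were higher there, with a median of 1.16 beside -0.19. Without mitochondrial and ribosomal protein genes 7 were higher there, and against the median of the other clusters all 8 were. In cluster 8, 3 of the 8 were higher, beside 10.9% of genes, among them Cdh1 at 6.88, above its 5.30 in cluster 4. Clusters 1, 3 and 9 had keratin sums (175, 169 and 173) near the 182 of cluster 4. In them 0 of the 8 were higher, beside 0.885%, 2.9% and 3.57% of genes. In clusters 5 and 10, 7 and 8 of the 8 were lower, beside 54.6% and 34.3% of genes. In the secretory cluster 11 all 8 were lower, beside 28.7%, although Krt18, Krt7 and Krt20 were among their higher levels there. Other intermediate filament genes showed a different order: Vim was highest in cluster 10 at 4.76, Lmnb1 in cluster 5 at 16.6 and the neurofilament genes Nefm and Nefl in cluster 11 at 1.52 and 1.09.

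**Figure D4:**
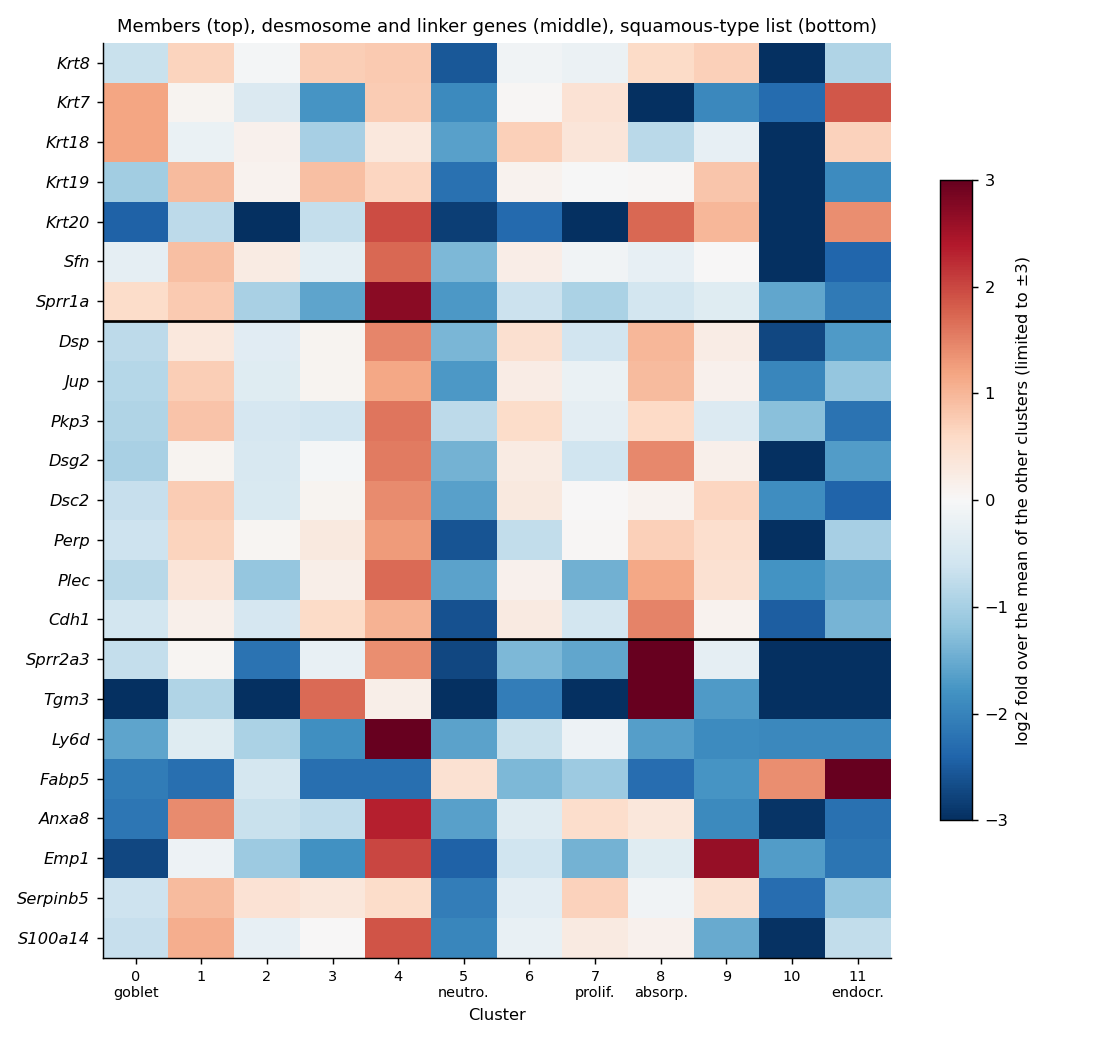
Log2 fold of each gene (rows) in each cluster (columns) over the mean of the other clusters, with 0.1 per 10000 added and colours limited to ±3, for genes that reach 1 per 10000. Rows are the 7 members (top), 8 genes of the desmosome and linker list, Cdh1 among them (middle), and 8 squamous-type genes (bottom). The middle rows are red in cluster 4, where their median is 1.45, while Sprr2a3 and Tgm3 are darkest in cluster 8.

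A further 4 pairs of clusters were compared directly, with Sprr1a among the 7 through its level in cluster 4 alone. Cluster 4 against cluster 1 had Krt20 5.36-fold and Sprr1a 3.04-fold higher (2 of 7, beside 6.29% of genes) and 0 of 7 lower (8.46%). Against the proliferating-like cluster 7, cluster 4 had Krt20, Sfn (3.003-fold) and Sprr1a (14.5-fold) higher (18.6% of genes) and 0 lower (23.8%). Cluster 4 against the absorptive colonocyte-like cluster 8 had Krt18 (2.07-fold), Krt7 (17.3-fold), Sfn (3.31-fold) and Sprr1a higher, 4 of 7 beside 7.81% of genes, and 0 lower (4.37%), while Krt20 was at 12.2 and 10.8. Between clusters 8 and 9, Krt7 alone of the 7 was lower in cluster 8, 2.69-fold (15.3% of genes), and 0 were higher (9.34%). Mitochondrially encoded genes gave 6.55% of all UMIs in cluster 4, 4.58% in cluster 8, 6.88% in cluster 1 and 2.95% in cluster 7. For ribosomal protein genes these were 5.80%, 3.95%, 15.1% and 22.7%. With both gene sets left out of the total, 3 of 7 members were again higher in cluster 4 than the mean of the others.

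Keratin RNA was also found in the leukocyte-rich clusters. Krt8 was at 8.98 and 5.32 per 10000 in clusters 5 and 10, Krt19 at 10.4 and 5.505 and Krt18 at 4.04 and 1.33. As a percent of the mean over the 10 epithelial clusters, Krt8 stood at 15.5% in cluster 5 and 9.19% in cluster 10, Krt19 at 19.2% and 10.1%, Krt18 at 29.4% and 9.70%, and Sfn at 35.0% and 6.57%. A list of 8 epithelial genes gave a median of 14.3% in cluster 5 (3.89% to 24.0%) and 10.5% in cluster 10 (1.70% to 27.2%), with Epcam at 15.3% and 11.6%. The ratio of Krt8 to Krt19 in these clusters was 0.862 (0.739 to 1.006) and 0.967 (0.742 to 1.26), within the epithelial range or overlapping it. Free RNA, doublets and stray epithelial cells cannot be told apart in averages.

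Likeness over the 12 clusters, as Pearson's r of log2(level + 0.1) among the 3276 genes, describes neighbours in pattern and nothing more. Krt8 was most like Lgals4 (r 0.98), Perp (0.98) and Fbp2 (0.97), Krt19 most like Mal2, Pef1 and Serhl (each 0.97), and Krt18 most like Wars, Kcnk1 (both 0.91) and Sil1 (0.90). Krt20 was nearest to H2-Q2 (0.93), Ceacam20 (0.92) and Igsf9 (0.91), and Krt7 to Fxyd3 (0.87), Mpzl1 (0.85) and Baiap2 (0.84). For the squamous-type genes the nearest were Aldh1a3 (0.94), Clu (0.89) and Pmepa1 (0.86) for Krt14, Elf3 (0.96), Mal2 (0.95) and Tmprss2 (0.95) for Sfn, and Bglap3 (0.93) and Tnk2 (0.89) for Sprr1a. These names depend on the setting: of the 24 pairs, 15 were kept with 1 per 10000 added, 6 with Spearman's rho and 4 without clusters 5, 6, 10 and 11.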

How the data were processed

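Single-cell RNA of irradiated mouse colon epithelium (1 group, 2 libraries) was summarised by the authors. The tools named, per the submitters' processing notes, are Seurat 2.3 and Cell Ranger 3.1.0, and the build is mm10. The deposited values are, for each cluster, the authors' linear mean of UMIs per 10000, as the column sums of 10000 show. How cells were filtered and clustered, and how doublets were treated, is not given in the sources used here.

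Where 1 UMI of 1 cell makes an average, 10000 divided by it equals that cell's total multiplied by the cell number of the cluster. The number of cells was the one that divided most such whole values (tolerance 1e-12), and totals given by at least 2 genes were accepted. This gave totals for 2299 of 3082 cells (74.6%). Intervals are exact Poisson 95% intervals on UMIs approximated from the harmonic mean of these totals, and binomial for ratios. On simulated cells with 1 shared profile over 17044 genes, the number of cells was right in 12 of 12 clusters. Intervals held the true level in 91.0% of cases at true levels of 1 or more per 10000, and intervals at lower levels were not scored. The 2-fold rule called 9 of 50 genes raised 2-fold, 50 of 50 raised 4-fold, 50 of 50 raised 8-fold and 50 of 50 raised 16-fold, with 2 false calls. Simulated cells of a cluster were alike, so this covers UMI sampling alone.

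Folds used a pseudocount of 0.1 per 10000, which understates folds of low genes, and genes at 1 or more in at least 1 cluster. Named were the 8 members, up to 6 genes with the highest level of each list, and the 3 genes most like each member, of which 1 is not reported here. Itgb4, Dst, Col17a1, Fabp5, Dsc2, Igkc, Igha, Jchain and Krt8-ps were named after their values were seen. The members, lists and cluster pairs were chosen with earlier results of these data known. Python 3.11.15, numpy 2.4.6, pandas 2.3.3 and scipy 1.17.1 were used.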

Additional observations from a re-analysis of the deposited data

How the results depend on the processing

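The 35 pairs of member and cluster past 2-fold (9 higher, 26 lower) kept their direction under 4 alternatives run on all 12 clusters. The amount added cannot turn a direction, and a smaller amount only widens a fold, so those outcomes were fixed in advance. Leaving out mitochondrial and ribosomal protein genes rescaled clusters by 0.13 to 0.46 (log2), too little to turn a 2-fold difference. Only the median as reference could have turned one. Of the 35, 29 stayed past 2-fold with 1 per 10000 added and 35 with 0.01 added. Without mitochondrial and ribosomal protein genes 35 stayed, and 33 against the median of the other clusters. With that median 15 pairs were higher, and at 4-fold 1 was higher and 16 lower. Without clusters 5, 6, 10 and 11, 13 pairs were lower in the 8 clusters left, which held 8 of the 26 before. With 1 per 10000 added, 1 member in place of 2 was higher in cluster 4 than in cluster 1, and 0 in place of 1 lower in cluster 8 than in cluster 9. Over all lists, 58 pairs of gene and cluster were higher and 244 lower. The lower pairs numbered 136 with 1 added and 119 without those 4 clusters, and against the median 125 were higher and 116 lower. Of the 24 genes most like a member, 15 were kept with 1 added, 6 with Spearman's rho and 4 without those clusters. The UMIs behind Krt14 in cluster 4 came to 161 by the median total in place of 72.4, the median being less weighted to shallow cells. Otherwise the cause of these changes was not tested. Leaving out mitochondrial and ribosomal genes moved the median fold of all tested genes by -0.18 in cluster 8 to 0.15 in cluster 2 (log2). No paired analysis was possible because no column separates the libraries, and leaving out a library could not be run. Precision was lowest in clusters 11 and 10, where 3 UMIs correspond to 0.174 and 0.139 per 10000, followed by cluster 5 at 0.0862. Leaving out cluster 6, chosen after seeing the data, changed the sign of none of the 5 correlations given.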
